A study of Mus musculus with 8 samples.

Results

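Mgl2, Clec4b2, Tcfec (now named Tfec) and Tnfsf13 are 4 genes, each with 1 probeset, among the 482 named genes of the authors' deposited table of changes between CD38high and CD38low myeloid cells. They were taken by symbol from that table, which lists 498 of the 23332 probesets measured. No unlisted probeset carries a gene name, so further probesets of these genes could not be looked for. The table holds only probesets that differ at least 2-fold between the fractions, so these genes were selected on their difference between the fractions, and that difference is given below as a description. All 4 stood lower in CD38high cells, as did 374 of the listed probesets (1.6% of all measured).

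The RNA came from splenocytes sorted by flow cytometry as positive for both CD11b and Gr1, the surface phenotype of mouse myeloid-derived suppressor cells, and then divided by their CD38 level. The mice behind both fractions had the genotype L2-Cre;p120f/f, an age of 12 months and a mixed C57BL/6x129 background, bore esophageal tumors and had no treatment. In this line the L2 promoter drives Cre in the squamous lining of the mouth and esophagus, where it deletes the floxed p120 (catenin delta 1) gene, so the spleen cells themselves are not the intended site of deletion. No tumor-free or p120-intact mice are among the groups. Each fraction was measured on 4 Affymetrix GeneChip arrays, from 3 individual mice and 1 pool of splenocytes of 3 mice that was sorted as 1 sample. Both fractions of a mouse or pool form a pair. Values are the authors' log2 expression, and array medians lay between 6.92 and 7.10. Precision is limited by the number of arrays.

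Cd38, the gene of the sorting marker, stood at 12.43, 12.54, 12.60 and 12.25 in the CD38high arrays of mouse 1, mouse 2, mouse 3 and the pool, and at 10.74, 10.90, 10.56 and 9.63 in their CD38low arrays. The fractions did not overlap, and the CD38low pool was the lowest of all. Probesets for the other sorting antigens, Itgam, Ly6g, Ly6c1 and Ly6c2, have no name in the files and were not analysed here.

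Myeloid cells read their surroundings through C-type lectin receptors, which bind sugars or other ligands and, in several cases, signal through immunoreceptor motifs. Mgl2, also called CD301b, is a lectin for galactose and N-acetylgalactosamine found on subsets of dendritic cells and on macrophages activated by interleukin 4. Clec4b2 belongs to a cluster of C-type lectin genes on chromosome 6. Tfec encodes a basic helix-loop-helix factor related to MITF, TFE3 and TFEB whose expression is largely restricted to macrophages. Tnfsf13 encodes APRIL, a ligand of the TNF superfamily that myeloid cells release after furin cleavage and that binds the receptors TACI and BCMA on B cells and plasma cells.

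The 250 bases before the transcript start of each gene are shown because the 4 genes were lower in the same arrays, so that the letters they share or lack can be read. All 4 genes had 1 entry in the RefSeq table of promoters (build GRCm38.p6). Capitals mark every match to 7 motifs searched on both strands: CACGTG and CATGTG (E-boxes bound by MITF and TFE factors), GGAAGT (PU.1 core), TGANTCA (AP-1), TTGCNNAA (C/EBP), the interferon response motif (GAAA, any 2 bases, GAAA) and the NF-kB motif (GGG, any 4 bases, TCC).
Mgl2 chr11:70130107-70130356 (plus strand): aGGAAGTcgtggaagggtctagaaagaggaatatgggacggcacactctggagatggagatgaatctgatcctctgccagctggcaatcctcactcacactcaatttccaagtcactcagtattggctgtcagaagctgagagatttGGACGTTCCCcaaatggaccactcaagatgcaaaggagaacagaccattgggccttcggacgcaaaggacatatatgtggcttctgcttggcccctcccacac
Clec4b2 chr6:123172773-123173022 (plus strand): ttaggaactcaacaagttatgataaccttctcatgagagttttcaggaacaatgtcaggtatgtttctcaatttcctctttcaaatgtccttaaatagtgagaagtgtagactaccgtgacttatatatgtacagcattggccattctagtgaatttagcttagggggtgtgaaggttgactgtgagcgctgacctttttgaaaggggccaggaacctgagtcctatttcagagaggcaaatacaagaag
Tfec chr6:16898442-16898691 (minus strand): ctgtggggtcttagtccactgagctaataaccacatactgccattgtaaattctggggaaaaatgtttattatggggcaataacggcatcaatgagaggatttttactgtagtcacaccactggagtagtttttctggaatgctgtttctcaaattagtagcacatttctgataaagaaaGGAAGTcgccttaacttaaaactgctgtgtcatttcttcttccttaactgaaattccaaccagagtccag
Tnfsf13 chr11:69685555-69685804 (minus strand): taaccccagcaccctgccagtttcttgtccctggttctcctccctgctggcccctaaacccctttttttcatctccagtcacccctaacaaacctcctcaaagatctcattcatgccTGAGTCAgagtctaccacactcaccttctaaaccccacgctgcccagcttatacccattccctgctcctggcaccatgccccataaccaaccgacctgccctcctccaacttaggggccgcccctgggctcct

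No motif of the 7 was present in more than 2 of the 4 windows. GGAAGT lay 249 to 244 bases before the start of Mgl2 and 70 to 65 bases before that of Tfec, and 19.7% of all 32851 promoter windows of this length hold it. The NF-kB motif lay 103 to 94 bases before the Mgl2 start, on the minus strand, and 16.5% of all windows hold it. TGANTCA lay 133 to 127 bases before the start of Tnfsf13, against 6.75% of all windows. The window of Clec4b2 held none of the 7. Neither E-box of the MITF and TFE factors was found in any of the 4, where 6.02% of all windows hold CACGTG and 12.3% hold CATGTG. The C/EBP and interferon response motifs, held by 9.56% and 2.98% of all windows, were absent as well. GC content was 50.8% in Mgl2, 40.4% in Clec4b2, 39.2% in Tfec and 56.4% in Tnfsf13, against a median of 52.4% over all windows. The transcript start used lies 232 bases inside the annotated gene for Mgl2, 155 for Clec4b2 and 23 for Tfec, so other transcripts of these genes begin further upstream. A match is a string of letters and not a shown binding site.

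Mgl2 (chromosome 11, RefSeq NM_145137) had the largest difference of all 23332 probesets towards lower expression in CD38high cells. It stood at 5.66 in mouse 1, 5.69 in mouse 2, 6.34 in mouse 3 and 6.06 in the pool of the CD38high fraction, and at 8.68, 8.86, 8.89 and 8.22 in the CD38low fraction of the same mice and pool. Every CD38high array lay below every CD38low array, with 1.88 between the highest of one and the lowest of the other. The group means were 5.94 ± 0.33 (SD, n = 4) and 8.66 ± 0.31 (SD, n = 4), a difference of -2.72 ± 0.20 (SE of the limma fit), or 6.60-fold. Within pairs Mgl2 was lower by 8.98-fold in mouse 2, 8.10-fold in mouse 1, 5.85-fold in mouse 3 and 4.47-fold in the pool. The Cd38 differences within pairs ran the other way round, at 1.64, 1.68, 2.05 and 2.62 on the log2 scale in that order. With 4 pairs this order was not tested. Clec4b2, Tfec and Tnfsf13 did not have it. In mouse 2, where Cd38 differed least, Tfec (3.73-fold) and Tnfsf13 (3.16-fold) had their smallest differences. In the pool, where Cd38 differed most, Clec4b2 had its largest (6.63-fold).

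Clec4b2 (chromosome 6, NM_001004159) was the most variable of the 4 genes between mice. In CD38high cells it stood at 7.23 in mouse 1, 8.59 in mouse 2, 8.59 in mouse 3 and 7.37 in the pool. In CD38low cells it stood at 9.90, 10.96, 10.07 and 10.09 in the same order. Mouse 2 was the highest of the CD38low arrays, and mice 2 and 3 were above mouse 1 and the pool among the CD38high arrays, yet the fractions did not overlap and the gap was 1.31. The means were 7.94 ± 0.75 and 10.26 ± 0.48 (SD, n = 4 each), a difference of -2.31 ± 0.39 (SE of the limma fit), or 4.97-fold. The difference within mouse 3 was 2.80-fold, below the 5.16-fold of mouse 2, the 6.36-fold of mouse 1 and the 6.63-fold of the pool. Both fractions of mouse 2 were high, and with the mouse or pool as a block the SE was 0.22.

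Tfec (listed as Tcfec, chromosome 6, NM_031198) was the most even. Its CD38high values were 8.51 in mouse 1, 8.74 in mouse 2, 8.91 in mouse 3 and 8.52 in the pool, and its CD38low values were 11.07, 10.64, 10.98 and 10.67. The arrays of a fraction spanned 0.39 and 0.43, against a gap of 1.73 between fractions. The means were 8.67 ± 0.19 and 10.84 ± 0.22 (SD, n = 4 each), a difference of -2.17 ± 0.14 (SE of the limma fit), or 4.50-fold. Within pairs it was lower by 5.90-fold in mouse 1, 4.45-fold in the pool, 4.19-fold in mouse 3 and 3.73-fold in mouse 2.

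Tnfsf13 (chromosome 11, NM_023517) stood at 7.73 in mouse 1, 8.88 in mouse 2, 8.89 in mouse 3 and 7.83 in the pool of the CD38high fraction. In the CD38low fraction it stood at 10.43, 10.54, 10.71 and 9.97. The CD38high arrays had the same split as for Clec4b2, with mice 2 and 3 more than 1 log2 unit above mouse 1 and the pool, and the CD38low pool was the lowest of its fraction. The fractions did not overlap, with a gap of 1.07. The means were 8.33 ± 0.64 and 10.41 ± 0.32 (SD, n = 4 each), a difference of -2.08 ± 0.31 (SE of the limma fit), or 4.22-fold. Within pairs the difference ran from 3.16-fold in mouse 2 to 6.49-fold in mouse 1. In RefSeq a gene named Tnfsfm13 lies next to Tnfsf13, a read-through of Tnfsf12 and Tnfsf13, and the probeset may also measure it.

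**Figure D1:**
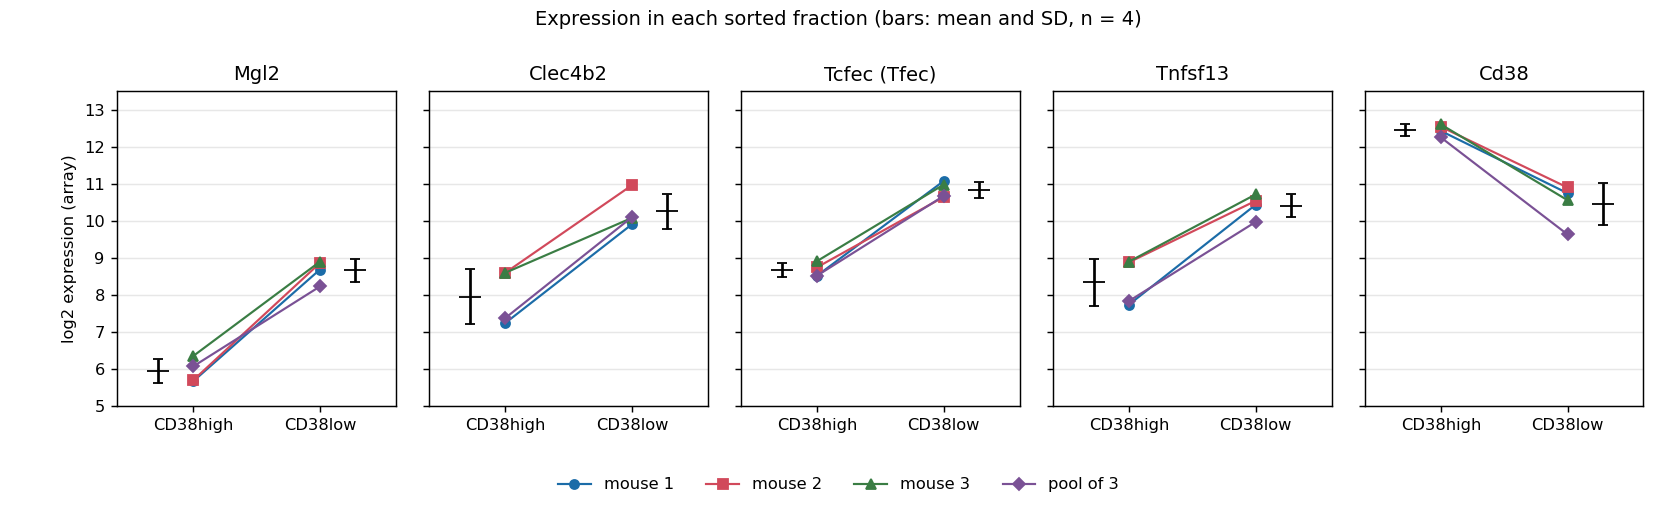
Log2 expression of the 4 genes and of Cd38 in the CD38high and CD38low arrays, with lines joining both arrays of each pair and bars for the mean and SD of 4 arrays. The 4 genes rise along every line from CD38high to CD38low, Clec4b2 and Tnfsf13 have the widest CD38high values (SD 0.75 and 0.64), and Cd38 runs the opposite way.

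Each of the 4 genes was lower in CD38high cells in 4 of 4 pairs, which holds for 17% of all probesets, and in each the fractions did not overlap in that direction, as in 9.37% of all probesets. All 4 differed more than 4-fold, as did 0.0557% of all probesets (13 of 23332) in that direction. All 4 were called lower in the limma fit at an adjusted p under 0.05, against 6.88% of all probesets, and in the fit with the mouse or pool as a block, against 9.87%. Without both arrays of mouse 1 the unpaired call was lost for Clec4b2 (difference -2.19) and Tnfsf13 (-1.87), and without the pool for Clec4b2 (-2.17). Mgl2 and Tfec were called in all 18 fits for which the calls of the members were recorded. Since these differences chose the genes, the calls are no independent test of them, and nothing is read from the counts. Among all probesets the differences ranked 1 (Mgl2), 5 (Clec4b2), 8 (Tfec) and 11 (Tnfsf13) from the lowest, and the median difference over all probesets was 0.04. The 4 lie well beyond the 2-fold limit of the authors' deposited table. All 4 passed a filter on dim probesets, with means over 8 arrays of 7.30, 9.10, 9.76 and 9.37 in the order above, against a cut at 5.67. Mgl2 passed mainly through its CD38low values. In CD38high cells its mean of 5.94 lies near the cut, mouse 1 (5.66) lies below it and mouse 2 (5.69) almost on it, and these are the arrays with the largest Mgl2 folds. Values of different probesets cannot be ranked against each other as expression levels.

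**Figure D2:**
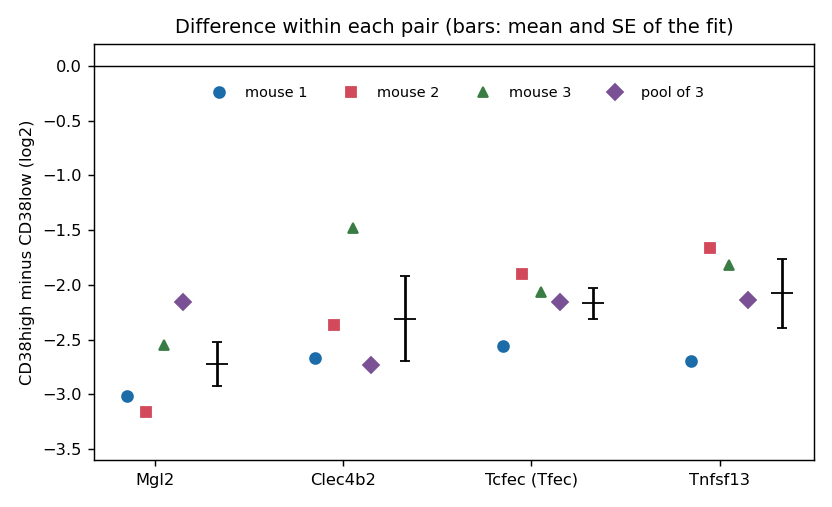
Difference CD38high minus CD38low on the log2 scale within mouse 1, mouse 2, mouse 3 and the pool for each of the 4 genes, with bars for the mean and the SE of the limma fit. All 16 points lie below 0, between -3.17 for Mgl2 in mouse 2 and -1.48 for Clec4b2 in mouse 3, and no mouse is the lowest for all 4 genes.

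**Figure D3:**
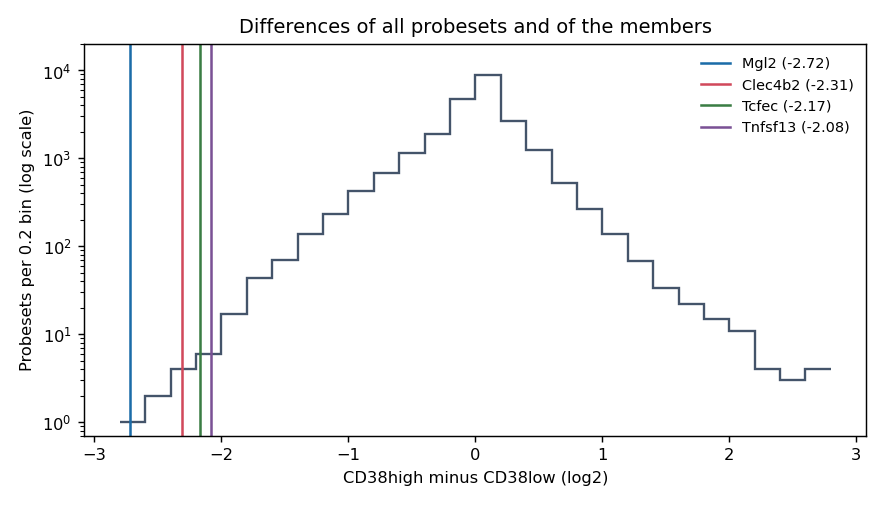
Number of probesets per bin of 0.2 (log scale) against the difference CD38high minus CD38low (log2) for all 23332 probesets, with lines at the 4 genes. The lines stand at -2.72, -2.31, -2.17 and -2.08, in the outermost part of the lower tail.

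How the arrays of a fraction differed among themselves entered the choice of the genes only through their spread. It is described here by the deviation of each array from its fraction mean. Clec4b2 and Tnfsf13 deviated together, with Pearson r = 0.807 over 8 arrays, and r stayed between 0.725 and 0.889 with any pair or array left out. In CD38high cells both were below their mean in mouse 1 (-0.71 and -0.60) and in the pool (-0.58 and -0.50), and above it in mouse 2 (0.65 and 0.54) and mouse 3 (0.65 and 0.56). Tfec and Tnfsf13 had r = 0.710 (0.537 to 0.912 with a pair or array left out). The other pairings, over all arrays, gave lower values: 0.505 for Mgl2 and Tnfsf13 (0.163 to 0.876 with a pair or array left out), 0.448 for Mgl2 and Tfec (0.0196 to 0.832), 0.323 for Mgl2 and Clec4b2 (0.0446 to 0.621), and 0.235 for Clec4b2 and Tfec. These ranges overlap those of the first pairings, and without mouse 2 the value for Mgl2 and Tnfsf13 (0.876) was above that for Clec4b2 and Tnfsf13 (0.838). That of Clec4b2 and Tfec turned to -0.0437 without the CD38high array of mouse 3. These values share arrays and mice and carry no p-value. Other named genes listed as lower had a median r of deviations of 0.374 with Mgl2, 0.398 with Clec4b2, 0.416 with Tfec and 0.511 with Tnfsf13. Against the medians of the genes paired, 0.807 and 0.710 lie above both, 0.448 slightly above both, 0.505 between them, and 0.323 and 0.235 below both. Apart from 0.807 and 0.710, the values are thus near or below those typical of other listed genes. How many listed genes reach 0.807 or 0.710 was not counted. Over the raw values of the 8 arrays the same 6 pairings gave r of 0.909 to 0.982, which the difference between fractions largely fixes.

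**Figure D4:**
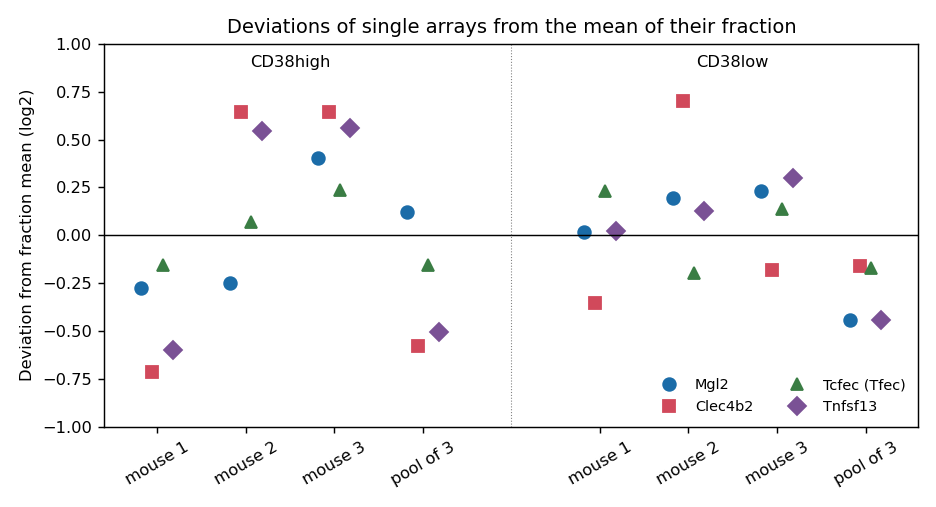
Deviation of each array from the mean of its fraction (log2) for the 4 genes, with CD38high arrays left and CD38low arrays right. Among CD38high arrays Clec4b2 and Tnfsf13 lie side by side in every mouse and in the pool, whereas Mgl2 was at -0.25 in mouse 2, where those were at 0.65 and 0.54.

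The named genes whose 8 values ran most like those of each member held none of the macrophage, dendritic cell or lectin lists used below. This was fixed by the choice of genes. Apart from the members, only Ccr7, Clec4e and Klra17 of those lists are named, and all were higher in CD38high cells. For Mgl2 the most alike were Dnajc9, a histone chaperone (r = 0.997), Nup85, a nucleoporin (r = 0.995), and Akip1, listed as D930014E17Rik (r = 0.995). For Clec4b2 they were Agpat5, an acyltransferase of phospholipid synthesis (r = 0.991), Nasp, a histone chaperone (r = 0.986), and Mtbp, an MDM2-binding protein (r = 0.985). For Tfec they were Ints7, a subunit of the Integrator complex (r = 0.999), Trim37, a ubiquitin ligase (r = 0.995), and Ipo5, an importin (r = 0.993). For Tnfsf13 they were Rpl23, a ribosomal protein (r = 0.994), Gins1, a part of the replicative helicase (r = 0.990), and Actl6a, an actin-like subunit of chromatin remodellers (r = 0.988). These r describe 8 arrays in 2 fractions and carry no p-value. Among the 476 other named genes considered, 326 (68.5%) had r of at least 0.9 with Mgl2, 216 (45.4%) with Clec4b2, 341 (71.6%) with Tfec and 284 (59.7%) with Tnfsf13. Of the 484 named probesets, 363 were listed as lower in CD38high cells, as the members were. Among all other probesets the shares were 4.22%, 3.54%, 4.40% and 4.47%.

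By deviations from the fraction means, far fewer genes ran alike. For Tnfsf13 the nearest was Ctsg, the cathepsin G gene of neutrophil primary granules (r = 0.988, and 0.980 to 0.999 with a pair or array left out), followed by Rpl23 (r = 0.979) and Actl6a (r = 0.951). Ctsg stood at 10.29, 10.86, 10.76 and 10.32 in the CD38high arrays of mouse 1, mouse 2, mouse 3 and the pool, and at 12.74 in the CD38low pool and up to 13.06 in the CD38low arrays of the mice. It thus had the same low mouse 1 and pool among CD38high arrays and the same low pool among CD38low arrays as Tnfsf13, with smaller steps. Mpo and Elane, of the same granules, did not share this order. In CD38high cells Mpo was at 11.56 in the pool and 11.38 in mouse 3, and Elane was at 12.09 in the pool and 11.78 in mouse 3. For Mgl2 the nearest were Dnajc9 (r = 0.948), Pole2, a subunit of DNA polymerase epsilon (r = 0.932), and Akip1 (r = 0.917). For Clec4b2 they were Agpat5 (r = 0.967), Nasp (r = 0.928) and Mtbp (r = 0.916), the same genes as by raw values. For Tfec they were Cyp20a1, an orphan cytochrome P450 (r = 0.962), Ints7 (r = 0.949) and Fh1, the fumarase of the citric acid cycle (r = 0.928). At least 0.9 was reached by 6, 8, 4 and 12 of the 476 named genes for Mgl2, Clec4b2, Tfec and Tnfsf13, and by 0.249%, 0.681%, 0.201% and 0.776% of all other probesets.

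The label of these genes as macrophage or dendritic cell genes was set against marker lists. Of 33 monocyte and macrophage markers, among them Csf1r, Adgre1 and Ccr2, 0 are named in the authors' deposited table. Of 27 markers of conventional and plasmacytoid dendritic cells, 2 are named: Mgl2 itself, and Ccr7, a chemokine receptor, which went the other way, at 7.88 ± 0.22 in CD38high and 6.51 ± 0.31 in CD38low cells (SD, n = 4 each; 2.57-fold higher). Of 17 genes of alternative macrophage activation, 2 are named, Mgl2 and Tfec. Of 22 myeloid transcription factors, which include Spi1 and Irf8, 0 are named. An unnamed gene is one that is absent from the authors' list, and it is not shown to be unchanged. The table lists 2.13% of all probesets in either direction, so few or no members of lists of this size are named at that share, and the counts are not read as a result. Whether other genes of these lists moved with the 4 was not analysed here, and the label could not be checked against its markers.

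The named C-type lectin genes of myeloid cells did not all move one way. Of the 30 on that list, 4 are named, where 2.13% of all probesets are in the authors' deposited table. In CD38high cells 2 were lower (Mgl2 and Clec4b2) and 2 higher (Clec4e and Klra17). The 2 lower genes are members, selected on that difference, and the other 26 of the list have no value here. The counts are not read as a result. Clec4e, which encodes Mincle, a receptor for mycobacterial glycolipids and products of dying cells, lies 3 protein-coding genes away from Clec4b2 in the chromosome 6 cluster. It stood at 12.14, 12.27, 12.41 and 12.24 in CD38high cells and at 11.05, 11.24, 10.98 and 11.36 in CD38low cells of mouse 1, mouse 2, mouse 3 and the pool. Its fractions did not overlap, and it was 2.15-fold higher in CD38high cells. Klra17, which encodes the receptor Ly49Q and lies on chromosome 6 as well, had means of 10.79 ± 0.24 in CD38high and 9.10 ± 0.39 in CD38low cells (SD, n = 4 each), a 3.22-fold difference. Of the 6 nearest protein-coding neighbours of Clec4b2, which are Clec4a4, Clec4b1, Clec4a2, Clec4n, Clec4d and Clec4e, 1 is in the authors' deposited table. The probes of Clec4b2 may not separate it from its close relative Clec4b1.

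**Figure D5:**
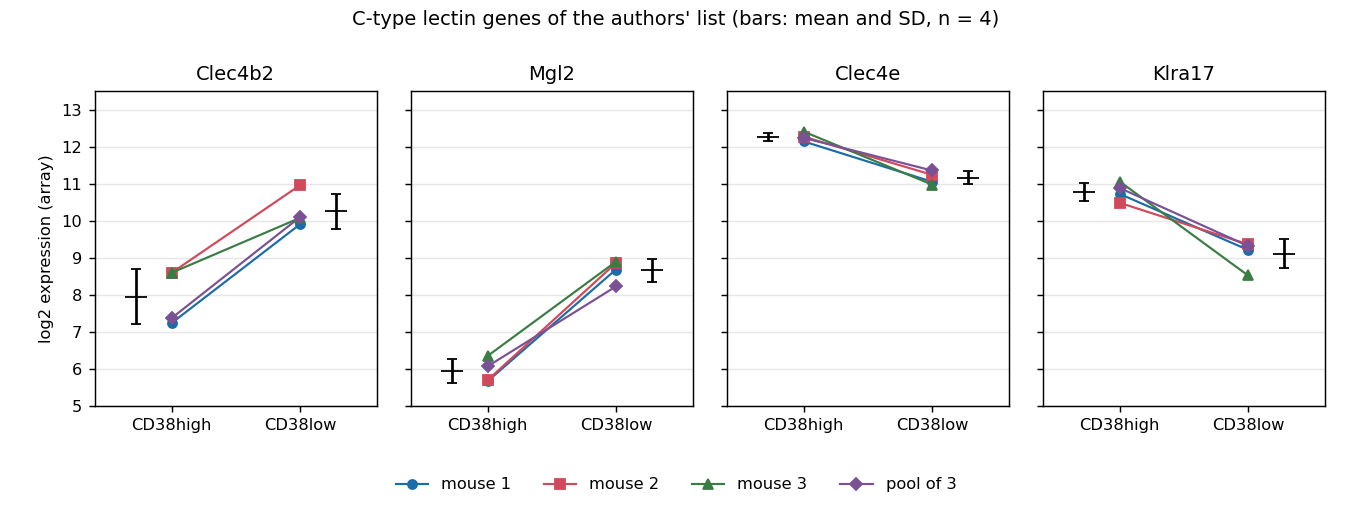
Log2 expression of the 4 C-type lectin genes of the authors' list in CD38high and CD38low arrays, with lines joining both arrays of each pair and bars for the mean and SD of 4 arrays. Clec4b2 and Mgl2 are lower and Clec4e and Klra17 higher in CD38high cells in 4 of 4 pairs.

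Mgl2 lies beside Clec10a, which encodes the other mouse macrophage galactose lectin, and near the liver lectin genes Asgr1 and Asgr2. None of the 6 nearest protein-coding neighbours of Mgl2 is in the authors' deposited table, and the same holds for the 6 nearest neighbours of Tfec and of Tnfsf13. The probes of Mgl2 may not separate it from Clec10a. Tnfsf13 and Mgl2 lie on the same chromosome with 33 protein-coding genes between them in RefSeq (GRCm38.p6), of which 0 are in the table. Tfec and Clec4b2 share chromosome 6, with 780 protein-coding genes between them, of which 16 are in the table. Of all probesets 2.13% are in the table, so these counts of neighbours are not read as a result.

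Partners of Tnfsf13 and Tfec were looked up in the same way. Of the 10 genes of the APRIL and BAFF system, which includes Tnfsf13b and the receptor genes Tnfrsf13b, Tnfrsf13c and Tnfrsf17, Tnfsf13 alone is named, the gene selected here, where 2.13% of all probesets are in the table. Among 29 other ligands and receptors of the TNF superfamily, 1 is named, the death receptor Fas, which was 2.33-fold higher in CD38high cells (8.69 ± 0.20 against 7.47 ± 0.27, SD, n = 4 each). Of 21 genes of the MITF and TFE factors and their lysosomal targets, Tfec alone is named, again a gene selected here. At a share of 2.13%, few or no members of lists of this size are named, so the counts are not read as a result. The other genes of these lists, among them Mitf, Tfe3 and Tfeb, are not shown to be unchanged.

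Genes of neutrophil stages and markers of other cell types also differed between the fractions. The authors' deposited table holds 2.13% of all probesets, with 1.6% as lower in CD38high cells and 124 of 23332 as higher. The lists were chosen with earlier results of these data known, so their counts are not read as a result. Of 13 genes of neutrophil primary granules and granulocyte precursors, 7 are named and all 7 stood lower in CD38high cells. Their median difference was -2.13 (log2), and since the table holds only differences of at least 2-fold, its distance from 0 is fixed by that choice. The other genes of the list have no value here. The mean log2 value of these 7 lay between 10.08 and 10.67 in CD38high arrays and between 12.39 and 12.64 in CD38low arrays. Of 20 mature neutrophil genes 6 are named and all 6 were higher, with means of 11.63 to 11.93 in CD38high and 10.16 to 10.63 in CD38low arrays. These 6, and the genes of the other lists given next, were also listed for a difference of at least 2-fold. The distance between their fractions is part of that choice. Of 15 T and NK cell genes 1 is named, Nkg7, which is also on the precursor list, at 8.86 to 10.29 in CD38high and 11.61 to 12.50 in CD38low arrays. Of 10 B cell genes 1 is named, Cd79a, at 7.99 to 9.75 against 6.45 to 7.33. Hdc of the 12 genes of eosinophils, basophils and mast cells and Selp of the 11 of erythroid cells and platelets were higher, by 2.20-fold and 2.42-fold, and Hdc is also 1 of the 6 mature neutrophil genes. None of 7 plasma cell genes and 9 stromal and endothelial genes is named. The part of these cells in the values of the 4 genes was not tested, and in bulk RNA fewer cells of a type and less RNA per cell cannot be told apart.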

How the data were processed

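Per the labels' protocols, T7-amplified RNA was turned into biotin-labelled cDNA for Affymetrix GeneChip arrays. The authors deposited log2 expression values of 23332 probesets on 8 arrays, and a table of 498 probesets they list as changed, with the same log2 values. Affymetrix Power Tools, RMA, PLIER and the build mm9 are named per the submitters' processing notes. Which tool gave the values is not given in the sources used here. Background and scan dates were not used here.

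Gene names came from the authors' deposited table only: each of its rows equalled exactly 1 probeset to 5 decimals, and 484 rows carry a symbol (482 genes), updated through a RefSeq table of GRCm38.p6. Groups were taken from the sample titles. lmFit and eBayes of limma 3.58.1 (R 4.3.3) were fitted to all probesets without a block, as the series design names an unpaired test, two-sided, with Benjamini-Hochberg adjustment over all probesets. Both fractions of a mouse or pool came from the same animals, per the labels, and their deviations from the fraction means correlated at 0.345 to 0.675, against -0.577 to 0.0998 for other pairings. A replicate block for mouse or pool was therefore the paired alternative. The p-values cover the spread between these arrays only.

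The members and lists were chosen with earlier results of these data known. Named are the members, Cd38, for each member the 3 named genes with the highest Pearson r of values and of deviations (1 probeset a gene, no predicted genes, clones or small RNAs), and members of fixed lists, up to 4 a list. Fits were tested on simulated data without a mouse or pool effect, so that test does not bear on the pairing. Plots and other calculations used Python 3.11.15, pandas 2.3.3, numpy 2.4.6 and matplotlib 3.10.9.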

Additional observations from a re-analysis of the deposited data

Results flagged for a closer look

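Of 62 groups of 4 arrays, over the 31 genes named with values, 1 array stood apart by a gap to its nearest neighbour that exceeded the critical value of Dixon's test, where chance gives about 3.1. Rpl23, the gene most like Tnfsf13 by raw values, was at 8.32 in the CD38low pool, against 8.67 to 8.74 in the other arrays of that fraction. The 4 members had no such array.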

How the results depend on the processing

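The differences of Mgl2, Clec4b2, Tfec and Tnfsf13 kept their sign and moved by less than the spread between arrays in all 68 alternative values. These came from the fixed and random block, leaving out arrays or pairs, quantile or median scaling and the filter on dim probesets. With every pair complete, the blocks and the filter cannot change a difference of means, so those values were fixed in advance. Leaving out a pair or an array gave -2.91 to -2.58 for Mgl2, -2.59 to -2.07 for Clec4b2, -2.26 to -2.04 for Tfec and -2.27 to -1.87 for Tnfsf13. The calls of Clec4b2 and Tnfsf13 lost without mouse 1 or the pool are given above. With mouse or pool as a fixed replicate block the differences were the same and the SEs were 0.18, 0.22, 0.12 and 0.18 in that order. Probesets called as different numbered 2479 in the unpaired fit, 3929 with the fixed and 3840 with the random replicate block. The methods' t-test, run with equal variance and no permutations, gave 1598 after Benjamini-Hochberg, and 351 at p under 0.001 with at least 2-fold. Leaving out a pair or an array gave 540 (without mouse 1) to 2436, and the count also moved by over 1.5 times without mouse 3 (1334) or the pool (1125), and with single arrays left out: CD38high of mouse 1 (1188), CD38high of the pool (1460) and CD38low of mouse 1 (1591). Of the recomputed correlations, chosen after seeing the data, 462 moved by at most 0.1, 41 moved further, and 1 changed sign, that of the deviations of Clec4b2 and Tfec, which ran from -0.0437 (CD38high array of mouse 3 left out) to 0.651 (mouse 2 left out). The causes were not tested. Fewer arrays leave fewer degrees of freedom. Signal over background was not available, which limits what can be said of Mgl2 in CD38high cells.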
